A study of Mus musculus with 2 samples.

Results

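Between the cells of a mouse islet library and its nearly empty droplets lay 1043 droplets that held 1000 to 5609 unique molecular identifiers each (UMIs, each marking 1 captured RNA molecule), out of 599690 barcodes with any UMI in the wild-type matrix. The upper end is set by the rule that calls a barcode a cell from 10% of the 99th percentile of the 3000 largest barcodes, which was 5610 UMIs here. Each low-RNA droplet was placed in a class by the share of its UMIs from the insulin genes Ins1 and Ins2 (poor, under 15%; mid, 15 to under 40%; rich, 40% or more). It was also classed by the share from the 13 protein genes of the mitochondrial genome, whose symbols begin with mt- (low-mt, up to 15%; high-mt, over 15%). The droplets were thus chosen by measured values (UMI total, insulin share and mitochondrial share), which are given only as description. The classes were set against 4550 cells of 5610 UMIs or more and against free RNA, meaning the pooled UMIs of 589592 droplets of 1 to 200 UMIs, all from the same library.

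The study compared pancreatic islets from male mice aged 8 weeks and kept without food for 12 h. They were wild type or carried a miR-203 transgene labelled as specific to beta cells, with a single 10x Genomics 3′ v2 library for each genotype. All values below are from the wild-type library; the transgenic library was not analysed here, nor were barcodes that the libraries may share. The labels do not give the number of mice. Their preparation text also mentions frozen tissue, total RNA extraction and sorted intestinal goblet cells, which do not describe a droplet library of islets, and 0 of 1043 droplets carried a set of goblet cell markers (an exact binomial interval allows up to 0.353%). With 1 library there is no replicate and no test between groups: intervals in parentheses are exact 95% Poisson or binomial intervals and cover counting error only. Doublets were not removed in either UMI range. The low-RNA droplets held 2.09% of all UMIs and the cells 88.4%, and 6 cells exceeded 15% mitochondrial UMIs.

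Islets are clusters of hormone cells (beta cells with insulin, alpha cells with glucagon, delta cells with somatostatin, PP cells with pancreatic polypeptide) threaded by capillaries and patrolled by macrophages, and they lie in an exocrine pancreas of acinar and ductal cells. Hormone cells are rich in RNA, whereas lymphocytes, endothelial cells and red cells hold much less, so a single lower limit on UMIs acts unequally on them. When a cell's outer membrane breaks, cytosolic RNA leaks into the suspension and enters every droplet as free RNA, while mitochondria and the nucleus, with nuclear RNAs such as Malat1, Neat1 and Meg3, can stay behind. For that reason a high mitochondrial share is commonly read as a mark of damage in single-cell work.

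Insulin-rich and insulin-poor droplets with few mitochondrial UMIs were the main classes. The insulin-rich low-mt class held 447 droplets, 42.9% of all (39.8 to 45.9), with a median of 1905 UMIs and 476 genes. The insulin-poor low-mt class held 282, or 27.0% (24.4 to 29.8), with a median of 3445 UMIs and 1300 genes. High-mt droplets were mostly insulin-poor: 189 droplets, 18.1% (15.8 to 20.6). Their median mitochondrial share was 79.0%, with a median of only 169 UMIs outside insulin and mitochondrial genes. Both shares are of all UMIs, so a high mitochondrial share by itself holds the insulin share down. Of UMIs outside insulin and mitochondrial genes, the amylin gene Iapp took 6.14% in this class and 0.802% in the insulin-poor low-mt class. Free RNA held a larger share than either class, with 575572 Iapp UMIs among 5757136 such UMIs. Insulin-poor here thus does not mean without beta cell RNA, and the part of free RNA in it was not tested. The insulin-mid classes were small, with 67 low-mt droplets (6.42%, 5.01 to 8.09) and 51 high-mt droplets (4.89%, 3.66 to 6.38), and 7 droplets were insulin-rich high-mt and are not followed further. Over the whole range the median droplet held 1888 UMIs, against 21635 in cells.

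The make-up changed with the UMI total. Between 1000 and 1999 UMIs, 11.6% of 559 droplets were insulin-poor low-mt and 29.7% insulin-poor high-mt, whereas between 4000 and 5609 UMIs, 61.3% of 163 droplets were insulin-poor low-mt and none was insulin-poor high-mt. The limits themselves fell in continuous ranges for UMIs. In the 500 UMIs below the cell limit lay 39 droplets and in the 500 UMIs above it 27, with median insulin shares of 2.73% and 2.89%. At the lower limit, 95 droplets lay in the 100 UMIs below it and 83 in the 100 UMIs from it up. Their median insulin shares differed, at 20.6% and 12.5%. Within 2 percentage points of the class limits lay 18 and 14 droplets on either side of 15% insulin, 6 and 7 beside 40% insulin, and 6 and 4 beside 15% mitochondrial UMIs. The droplets beside 15% insulin had median mitochondrial shares of 61.3% and 52.3%. That limit thus cuts through a continuous range of high-mt droplets, and the shares of the high-mt classes moved with it, as given below.

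**Figure D1:**
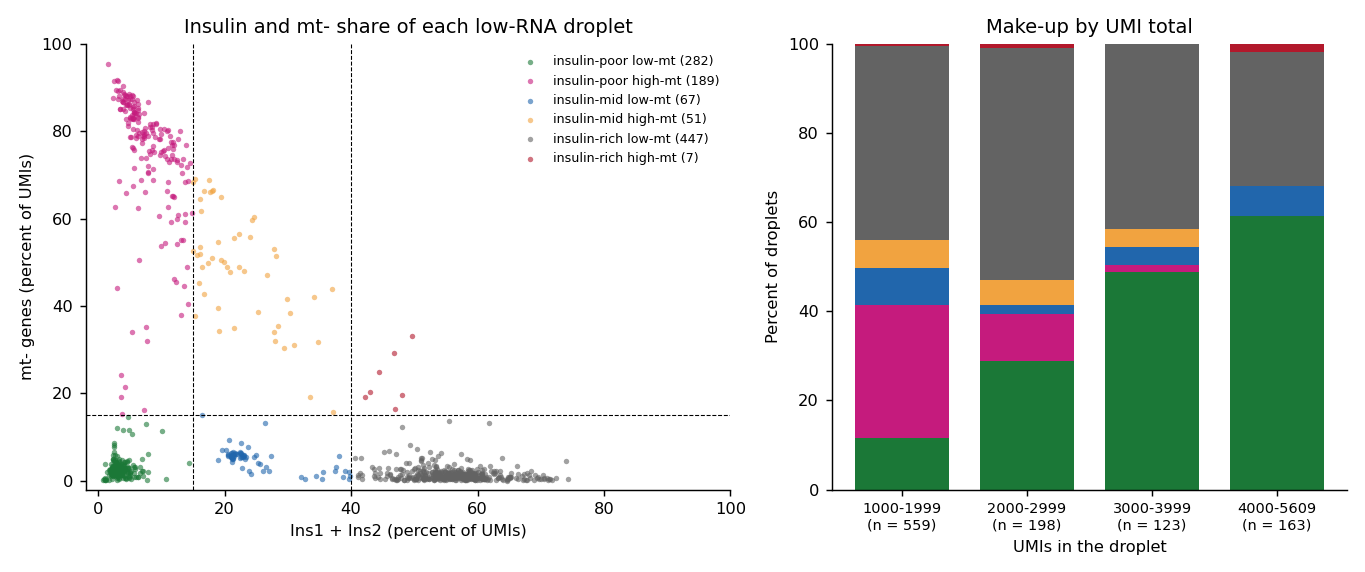
Left, each of the 1043 low-RNA droplets by its share of Ins1 plus Ins2 UMIs (x axis, percent) and of mt- UMIs (y axis, percent), coloured by class with the class limits dashed. Right, the percent of droplets in each class for 4 ranges of UMI total: insulin-poor low-mt droplets (green) go from 11.6% in the lowest range to 61.3% in the highest, and insulin-poor high-mt droplets (magenta) from 29.7% to none.

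To ask which cell kinds the droplets held, a droplet was said to carry a marker set when it had at least 5 UMIs from at least 3 genes of the set and at least 5 times the set's share in free RNA, both after insulin and mitochondrial UMIs were taken out. The remaining UMIs are called rest UMIs, and levels are CPM computed over rest UMIs alone (rest CPM). Background was measured in 5097 sets of consecutive free RNA droplets joined until they reached 1888 UMIs, and cells were thinned to 1888 UMIs before counting, while droplets were not thinned. For several sets the share is also given with both thinned to 1000 UMIs or with cells at full depth. Of the 282 insulin-poor low-mt droplets, 250 (88.7%, 84.4 to 92.1) carried at least 1 non-endocrine set. Of the same droplets 11 carried neither such a set nor a hormone (Gcg, Sst, Ppy or Gast, insulin left out) at 5 times its free RNA share. In the other classes most droplets carried neither: 179 of 189 insulin-poor high-mt, 64 of 67 insulin-mid low-mt, 48 of 51 insulin-mid high-mt and 444 of 447 insulin-rich low-mt droplets. Of the joined free RNA sets, 4829 of 5097 (94.7%) also carried neither. Non-endocrine carriers were split about evenly by the cell limit, with 267 below it and 240 among cells. They were 25.6% of all droplets, beside 179 joined free RNA sets (3.51%). Hormone-rich carriers, of those hormones alone, numbered 23 below and 674 among cells. The 23 were 2.21% of droplets, close to the 1.79% of joined free RNA sets (91) that were hormone-rich. Insulin is not counted among these hormones: 447 insulin-rich low-mt droplets lay below the limit, beside 2788 insulin-rich cells. Droplets below the limit were 18.6% of droplets and cells together, so 52.7% of non-endocrine carriers (48.2 to 57.1) and 3.30% of hormone-rich carriers (2.10 to 4.91) lay below it. With droplets and cells both thinned to 1000 UMIs these shares were 51.6% and 3.32%. Carriers are chosen by the genes of their set, so the levels of those genes in carriers are partly fixed by that choice and are given as description.

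Vascular cells were the most numerous kind. The endothelial set was carried by 113 droplets, 111 of them insulin-poor low-mt (39.4% of that class), against 117 cells and 8 of 5097 joined free RNA sets, so 49.1% of carriers (42.5 to 55.8) lay below the limit. Their share rose from 2.50% of droplets of 1000 to 1999 UMIs to 35.6% of those of 4000 to 5609, and their median was 4028 UMIs. In the 111 insulin-poor low-mt carriers Plvap, which forms the diaphragms of fenestrated capillaries (GRCm38 chr8:71497765-71511752), stood at 5535 rest CPM, against 3379 in the 117 cells and 128 in free RNA. Emcn, an endothelial sialoglycoprotein (chr3:137341067-137432185), stood at 2665 against 1354 and 55.4 rest CPM. The VEGF receptor genes Flt1 and Kdr were close on both sides of the limit, at 1967 and 1382 rest CPM below and 1757 and 1291 in cells. The carriers' make-up differed elsewhere: insulin took 2.72% of UMIs below the limit and 6.74% in cells, and haemoglobin was 3.42% of rest UMIs in the cells.

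Mural and stromal cells were few. The pericyte or smooth muscle set was carried by 19 droplets, all insulin-poor low-mt, against 39 cells (72 at full depth) and 0 joined free RNA sets. The share below the limit was 32.8%, or 20.9% with cells at full depth and 37.1% with both thinned to 1000 UMIs. Rgs5, a pericyte regulator of G-protein signalling, stood at 5037 rest CPM in them and 3228 in the cells, and Ndufa4l2, a hypoxia-responsive mitochondrial protein gene of pericytes, at 1378 and 613. The fibroblast set was carried by 12 droplets and 11 cells, or 39 cells at full depth, so its share below the limit was 52.2%, or 23.5% with cells at full depth and 40.0% (4 droplets and 6 cells) with both thinned to 1000 UMIs. These sets overlapped: 7 droplets carried both, 7 carried the endothelial and pericyte sets and 3 the endothelial and fibroblast sets, and doublets among them were not tested. Schwann cell markers were carried by 2 droplets and those of lymphatic endothelium, adipocytes and dividing cells by none.

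Lymphocytes lay mainly below the cell limit. The B cell set was carried by 54 droplets and 16 cells, so 77.1% of carriers (65.6 to 86.3) were below the limit, and by 0 of 5097 joined free RNA sets. At full depth 27 cells carried it, for 66.7% below the limit, and with both thinned to 1000 UMIs 27 droplets and 7 cells did, for 79.4% (62.1 to 91.3). The 54 droplets had a median of 3198.5 UMIs, and all 54 also carried the MHC class II set. Cd79a, a signalling chain of the B cell receptor (chr7:24897381-24902197), had a UMI in 53 of the 53 insulin-poor low-mt carriers and stood at 2008 rest CPM, against 1715 in the 16 cells, 93.1 in free RNA and 135 in insulin-rich cells. The other B cell genes were Ly6d at 1186 and 1209 rest CPM (49.2% of the latter from 1 cell), Ms4a1, which encodes CD20, at 567 and 601, and Ebf1, a transcription factor of early B cell fate, at 735 and 269, and these 3 genes stood at under 10 rest CPM in free RNA. Ribosomal protein genes were 15.7% of rest UMIs in these droplets and 16.7% in the cells, the highest of the 7 marker sets profiled, and Malat1 was 2.84% and 1.59%.

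The T cell set was carried by 15 droplets and 2 cells, so 88.2% of carriers (63.6 to 98.5) were below the limit, again with 0 joined free RNA sets; at full depth 4 cells carried it, for 78.9% below the limit. Cd3g, a chain of the T cell receptor complex, had a UMI in 15 of 15 droplets and stood at 1204 rest CPM, with Cd3d at 611 and the adhesion receptor Cd2 at 680. The coreceptors were sparse, with 5 UMIs of Cd4 in 4 droplets and 3 UMIs of Cd8a in 1 droplet, so the droplets could not be sorted by them at this depth. One of the 15 also carried the NK cell set. Skap1, an adaptor of T cell receptor signalling, stood at 157 rest CPM in the droplets, 54.0 in free RNA and 67.5 in insulin-rich cells.

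Myeloid droplets were smaller. The macrophage set was carried by 39 droplets and 79 cells (33.1% below the limit, 24.7 to 42.3) and by 9 joined free RNA sets, and 37 of the 39 droplets also carried MHC class II. The 38 insulin-poor low-mt carriers had a median of 1537.5 UMIs and the 79 cells 10857. The complement genes C1qa and C1qb, hallmarks of tissue macrophages, stood at 3055 and 3825 rest CPM in those droplets and at 2639 and 3487 in the cells. Ctss, a lysosomal protease, stood at 4768 and 3617 rest CPM. Lyz2, the myeloid lysozyme gene, stood at 3931 and 2560, but 1 droplet gave 39.2% of its UMIs below the limit and 1 cell 39.0% above it. Mrc1, a scavenger receptor of resident macrophages, had no UMI in these droplets and 3 in the 79 cells, and no droplet carried the dendritic, neutrophil or mast cell sets.

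**Figure D2:**
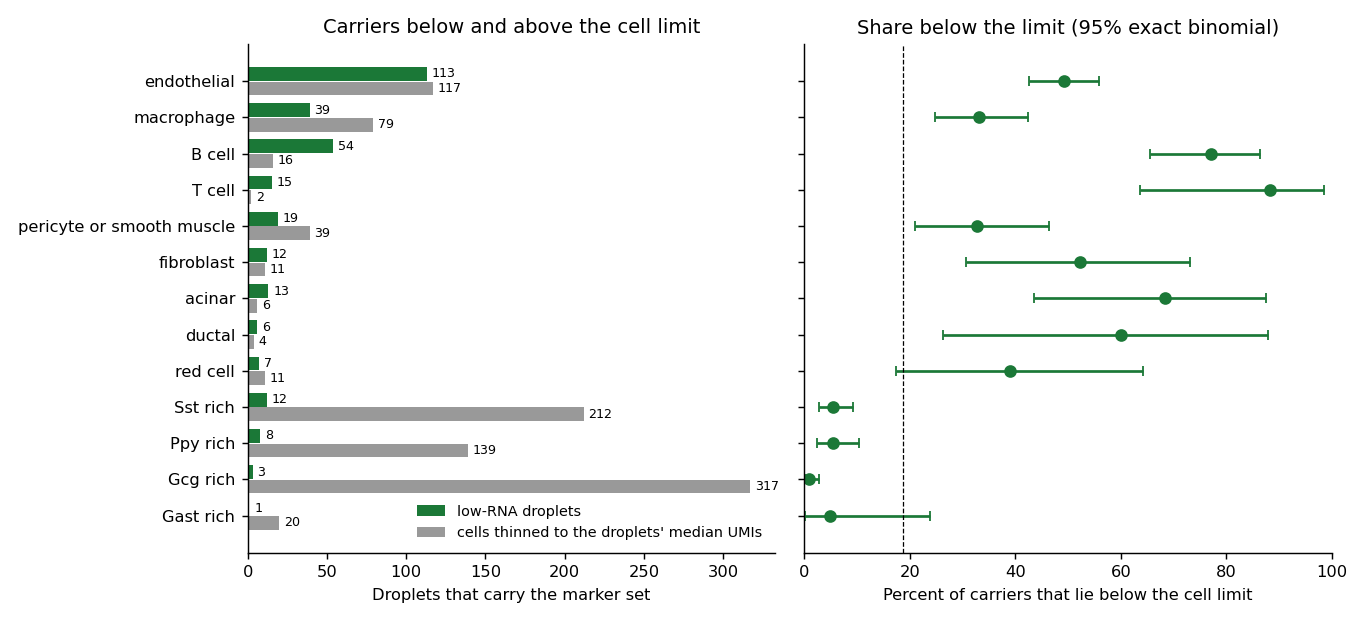
Left, the number of low-RNA droplets (green) and of cells thinned to 1888 UMIs (grey) that carried each marker set. Right, the percent of carriers below the cell limit with exact 95% binomial intervals, beside the 18.6% that low-RNA droplets make up of droplets and cells together (dashed): the B cell set stands at 77.1%, the endothelial set at 49.1% and Gcg-rich carriers at 0.938%.

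Red cells formed 7 droplets that were almost all haemoglobin. They held 1616 to 4630 UMIs from 75 to 111 genes, with 92.6 to 97.2% of UMIs from Hba-a1, Hba-a2, Hbb-bs and Hbb-bt and at most 0.736% from mitochondrial genes, which mature red cells have lost. The near-identical alpha globin copies, and the beta globin copies, may share reads, so values of single globin genes are uncertain. Hbb-bt ranged from 2 to 235 UMIs over the 7 droplets. Alas2, the haem synthesis enzyme of red cell precursors, had 10 UMIs in 6 of them, and the membrane genes Slc4a1 and Epb42 had none, nor had they any in 11 red cell set carriers among the cells. In those 11 cells the red cell set was 55.9% of rest UMIs beside a median of 2127 genes. The set was carried by 0.671% of droplets and also by 49 joined free RNA sets (0.961%).

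Acinar RNA was found in 13 droplets and 6 cells, and 96 joined free RNA sets also carried it, so the background of this set was the highest of all non-endocrine sets. The 9 carriers among the insulin-poor low-mt droplets held 43.1% of rest UMIs in acinar genes, with a median of 196 genes, 0.565% mitochondrial UMIs and 0.0899% of rest UMIs from Malat1. Ctrb1, chymotrypsinogen (chr8:111686519-111691010), stood there at 97947 rest CPM and Cpa1, carboxypeptidase A1, at 21566. The 6 cells were of another kind: acinar genes were 3.16% of their rest UMIs and insulin 43.2% of their UMIs. The ductal set, which shares keratin genes with hormone cells, was carried by 6 droplets, none of them insulin-poor low-mt.

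Hormone cells other than beta cells were rare below the limit. Gcg-rich droplets numbered 3 against 317 cells (0.938% below the limit, 0.194 to 2.72), Ppy-rich droplets 8 against 139, and Sst-rich droplets 12 against 212. Gcg-rich and Ppy-rich sets were absent from the joined free RNA, but 33 of the 5097 joined sets were Sst-rich and 58 were Gast-rich, so these counts include a background. The Sst-rich droplets had a median of 1436.5 UMIs and 1 was insulin-mid high-mt.

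**Figure D3:**
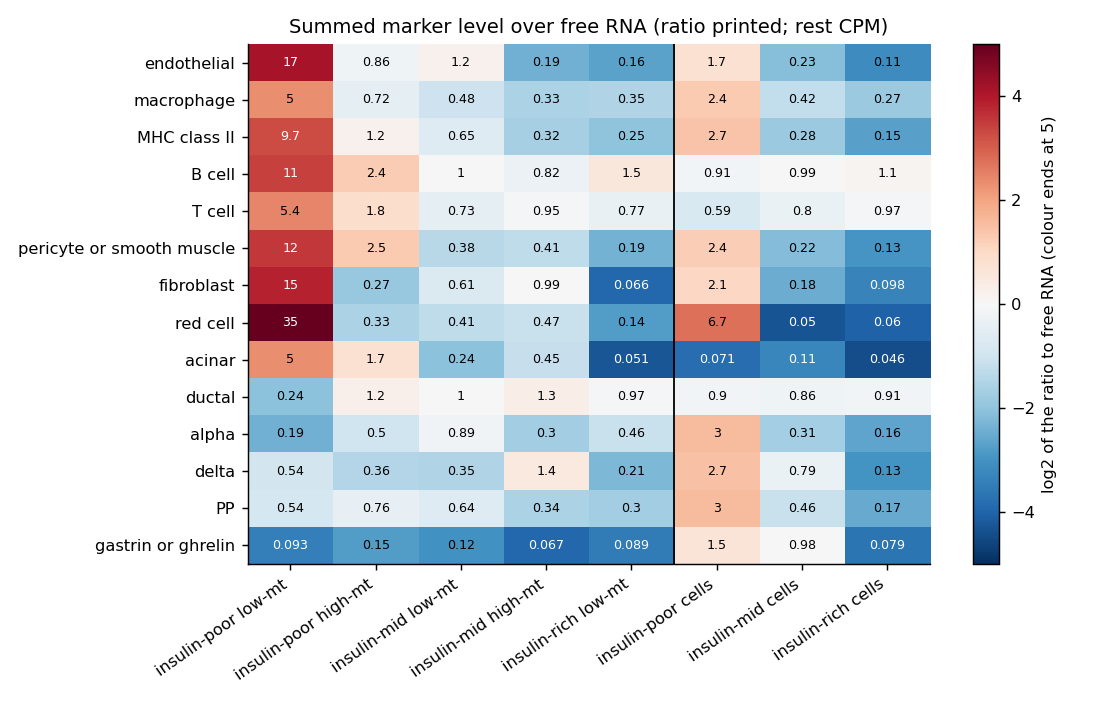
Summed level of 14 marker sets in 5 classes of low-RNA droplets and in cells of 3 insulin classes, as the ratio to free RNA (rest CPM, printed in each field, colour on a log2 scale that ends at 5). Insulin-poor low-mt droplets stand at 17.5 times free RNA for endothelial and 10.6 times for B cell markers and at 0.187 times for alpha cell markers, while insulin-poor cells stand at 2.98 times for alpha cell markers.

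Clustering of the 1043 droplets without insulin and mitochondrial genes grouped the same kinds, as a description, since the clusters were formed from the genes that define them. Of 10 clusters, 5 were named from marker sets and held 228 droplets: endothelial-like 112, B cell-like 60, macrophage-like 40, acinar-like 9 and red cell-like 7. Unnamed clusters held the rest, among them 16 droplets with pericyte and fibroblast markers together, 12 led by Sst and Rbp4, and 120 led by Ppy, Gm42418 and Meg3. Of those 120 only 5% were Ppy-rich, whereas 100% of the 12 were Sst-rich. T cell genes led a cluster of 202 droplets, but 6.93% of those carried the T cell set and the cluster was left unnamed.

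The pooled insulin-poor low-mt class differed widely from free RNA. Genes were compared when they reached 50 rest CPM and 20 UMIs in either pool, as the log2 ratio of rest CPM plus 5, and called at a 2-fold difference. Of 3897 genes, 44.6% were called: 818 higher (21%) and 921 lower (23.6%). With all UMIs as the total, in which free RNA holds more insulin, the split was 1316 higher and 267 lower. The highest ratios among the genes tested were those of the haemoglobin genes Hba-a1, 63.1-fold higher (58.8 to 67.8), and Hba-a2, 49.2-fold (45.7 to 53.1), from UMIs in 14 and 13 droplets. The 7 red cell droplets alone gave 8082 of the 8093 Hba-a1 UMIs and 5767 of the 5774 Hba-a2 UMIs. Of genes of the cell kinds above, Ebf1 was 35.2-fold higher (26.0 to 48.7), Emcn 22.1-fold (19.5 to 25.1) and Nrp1, a VEGF co-receptor, 21.3-fold (18.3 to 24.8). The 53 B cell carriers gave 127 of the 266 Ebf1 UMIs in the class, so that ratio does not rest on B cell carriers alone. Beta cell genes were lower, with Iapp, the amylin hormone gene, 12.5-fold lower (12.2 to 12.8) and G6pc2, a glucose-6-phosphatase subunit of beta cells, 19.3-fold lower (12.4 to 31.6).

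Gene lists gave these counts. Of 16 interferon and MHC class I genes, 14 were higher than in free RNA (median log2 ratio 1.91, against -0.15 over all genes tested), led by Isg15, 12.0-fold, and Ifitm3, 11.8-fold, both interferon-induced antiviral genes. Of 21 secretory granule genes 20 were lower (median -2.70), among them the granule protein Scg2, 10.8-fold, and the zinc transporter Slc30a8, 12.3-fold. Chaperone genes of the endoplasmic reticulum were lower in 18 of 21. Immediate early genes went both ways, with 7 of 18 higher, led by Ier3 at 9.06-fold and Klf4 at 7.35-fold, and Egr1 and Fosb lower by 2.17-fold and 2.42-fold.

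Against the 1026 insulin-poor cells, whose alpha, delta and PP sets stood at 2.98, 2.74 and 3.01 times free RNA, 37% of 3233 genes were called in the insulin-poor low-mt droplets, 896 higher (27.7%) and 299 lower (9.25%). With cells of all insulin classes in their place the split was 854 and 887. All 16 interferon and MHC class I genes tested were higher (median 1.97, against 0.41 over all genes), including B2m, the light chain of MHC class I, at 3773 against 600 rest CPM. Of 18 immediate early genes 9 were higher, such as Dusp1, a phosphatase of MAP kinases, 5.77-fold (5.28 to 6.29), and 15 of 17 secretory granule genes were lower. Gcg was 16.2-fold lower (15.8 to 16.6) and Ttr, transthyretin, a gene of alpha cells, 17.6-fold lower (16.5 to 18.8). The highest ratios of all belonged to trypsin genes, such as Prss3 at 201-fold (160 to 256), which rest on 11 droplets and on near-identical gene copies. The marker sets of the droplets and of the cells differ, so none of these ratios compares a cell kind with itself.

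The insulin-poor high-mt droplets held little beyond mitochondrial RNA, and 10 of the 189 carried a marker set or were hormone-rich. The 94.7% that carried neither matched the 94.7% of joined free RNA sets. The 189 droplets together had 52673 rest UMIs. Of 3058 genes, 22.6% were called against free RNA, 292 higher (9.55%) and 400 lower (13.1%), but most of these had under 20 UMIs counted or expected. Among the 350 genes with at least 20, 14.3% were called, 36 higher (10.3%) and 14 lower (4%). With all UMIs as the total every log2 ratio of this comparison shifts by -1.64, and 2 genes were higher and 1442 lower. The 8 lowest genes had no UMI and under 20 expected, and are not described.

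The genes higher in these droplets were led by non-coding RNAs. Gm42418 (chr17:39846958-39848788) was 10.1-fold higher (8.79 to 11.6), at 4329 against 428 rest CPM, with a UMI in 79 of the 189 droplets, and its neighbour Gm26917 (chr17:39843013-39846341) was 12.2-fold higher (9.33 to 15.8). Both are annotated as long non-coding RNA genes at a copy of the ribosomal RNA repeat, so their reads may be ribosomal RNA. Meg3, a maternally expressed imprinted non-coding RNA (chr12:109541001-109571726), was 5.27-fold higher (4.92 to 5.63), at 17314 against 3287 rest CPM in 118 droplets. In the pooled sums Malat1 (chr19:5795690-5802672) was 2.76-fold higher (2.66 to 2.86) and Neat1 2.08-fold (1.62 to 2.62). Both directions turned with all UMIs as the total, since mitochondrial UMIs then fill most of it. The protein genes Insrr, an insulin receptor relative of beta cells, at 5.49-fold (3.81 to 7.67), and Mlxipl, the glucose-responsive factor ChREBP, at 4.33-fold (3.23 to 5.68), stood higher too.

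Malat1 was not spread evenly over these droplets. It was 5.53% of pooled rest UMIs but a median of 1.49% per droplet. The pooled share lay above the free RNA share, whereas the median droplet lay below it. A single droplet gave 10.7% of the Malat1 UMIs, and 29 of 189 droplets had none. Islet hormones were lower than in free RNA, Gcg at 0.490 times (0.460 to 0.522) and Sst at 0.344 times (0.273 to 0.429), and Iapp stood at 0.614 times. None of 29 ribosomal protein genes was called (median -0.43). Of the immune and vascular sets, macrophage stood at 0.720 times free RNA, endothelial at 0.855, MHC class II at 1.16, and T cell, B cell and pericyte or smooth muscle at 1.83, 2.40 and 2.49 times from only 7, 16 and 11 UMIs. Of the Cd74 UMIs 58.8% came from 1 droplet.

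Within the insulin-poor droplets, 47.6% of 2812 genes were called between high-mt and low-mt, 11.1% higher and 36.5% lower, and 63.7% of 432 genes with at least 20 UMIs counted or expected, 21.1% higher and 42.6% lower. A non-endocrine set was carried by 250 of the 282 low-mt and 9 of the 189 high-mt droplets, beside 3.51% of joined free RNA sets. Ratios between these classes, and those to insulin-poor cells below, therefore do not compare a cell kind with itself. Meg3 was 31.3-fold higher in the high-mt class (17314 against 553 rest CPM), Insrr 39.6-fold (21.1 to 77.9) and Mlxipl 33.0-fold (20.4 to 54.5). On the rest scale secretory granule genes were higher in 13 of 15 (median 2.04) and endoplasmic reticulum chaperones in 13 of 18 (median 1.26), but both medians turned, to -0.29 and -1.07, with all UMIs as the total, where 19 genes were higher and 2415 lower. Of 16 interferon and MHC class I genes 13 were lower, as were 16 of 29 ribosomal protein genes, against a median of -0.51 over all genes. Ly6c1, a surface antigen of endothelial and immune cells with 1452 UMIs in the low-mt class, had none in the high-mt class. Against insulin-poor cells, 30.3% of 2226 genes were called, or 42.9% of 326 with at least 20 UMIs counted or expected; the split of 371 higher and 304 lower became 7 and 1847 with all UMIs as the total. Among mitochondrial UMIs, mt-Co1, a subunit of cytochrome c oxidase, was 15.2% in the class (15.1 to 15.4). It was 13.6% in free RNA, 19.8% in insulin-poor cells and 21.8% in all cells. For mt-Nd1, a subunit of complex I, the class stood at 9.83% (9.70 to 9.96), above free RNA (9.43%) and all cells (8.03%). Insulin-poor cells were level with the class for mt-Nd1, at 9.85% (9.76 to 9.94).

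The 51 insulin-mid high-mt droplets shared the leading genes of that class. Against free RNA, 33.6% of 3058 genes were called, and of 191 genes with at least 20 UMIs counted or expected 31.9% were, 20 higher and 41 lower (21.5%). With all UMIs as the total 14 genes were higher and 909 lower. Gm42418 stood at 4724 against 428 rest CPM (ratio 9.21 to 13.1), and Mlxipl was 7.48-fold higher (5.54 to 9.89), Meg3 5.99-fold (5.50 to 6.51) and Abcc8, the sulfonylurea receptor subunit of the beta cell potassium channel, 5.08-fold (3.69 to 6.82). Of 29 ribosomal protein genes 14 were lower and none higher (median -0.94), beside 20.1% of all genes tested that were lower. Against insulin-mid cells, 31.3% of 3322 genes were called and 34% of 191 with at least 20 UMIs counted or expected, with 15 of 29 ribosomal protein genes lower beside 20.6% of all genes tested and 26.7% of the 191; with all UMIs as the total 10 genes were higher and 1175 lower. Against the insulin-mid low-mt droplets, 29.6% of 626 genes were called, 34 higher (5.43%) and 151 lower (24.1%), or 36.3% of 190 with at least 20 UMIs counted or expected, with a split of 7 and 463 on all UMIs. There Gm42418 was 24.7-fold higher (15.1 to 42.9). Of the Sst UMIs in this class 79.5% came from 1 droplet.

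The 67 insulin-mid low-mt droplets had a median insulin share of 22.6% and mitochondrial share of 5.52%, beside 34.0% and 7.46% of pooled free RNA UMIs; these shares chose the class and are given as description. Against free RNA 7.36% of 3058 genes were called, 32 higher (1.05%) and 193 lower (6.31%), and 2.22% of 677 genes with at least 20 UMIs counted or expected, 7 higher (1.03%) and 8 lower (1.18%). With all UMIs as the total the split was 31 and 50, and with a lower limit of 2000 UMIs, which leaves fewer droplets, 17.3% were called. Among those higher were Actb, cytoplasmic actin, at 2.13-fold, Abhd2, a lipid hydrolase, at 2.44-fold and Pam, which amidates peptide hormones, at 2.06-fold. Gast, the gastrin gene, was 7.46-fold lower and Sst 3.17-fold lower. Ratios of Plvap and Rasd1 rest on a single droplet, which gave 76.9% and 72.7% of their UMIs. Against insulin-mid cells 9.2% of 3325 genes were called, 40 higher (1.2%) and 266 lower (8%), a split of 32 and 83 with all UMIs as the total, and 4.09% of 684 with at least 20 UMIs counted or expected. There Gcg was 3.14-fold higher (3.03 to 3.25), a direction that turned, at a log2 ratio of -0.02, when cells of all insulin classes were the reference.

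The 447 insulin-rich low-mt droplets differed from insulin-rich cells at few highly counted genes. Of 3317 genes, 8.29% were called against the 2788 insulin-rich cells, 18 higher (0.543%) and 257 lower (7.75%), and Iapp (chr6:142298423-142303961) stood at 1.39 times the cells' level. No ribosomal protein gene of 29, no respiratory chain gene of 27 and 1 of 21 secretory granule genes were called. The exception among granule genes was Pam (chr1:97795114-98095646), 3.88-fold higher (3.51 to 4.27) with UMIs in 200 droplets. Abhd2 at 3.37-fold (2.86 to 3.95) and Actb at 2.90-fold (2.79 to 3.01) were higher as well, and these 3 genes were also over 2-fold higher in the insulin-mid low-mt class than in free RNA.

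Genes lower in the insulin-rich low-mt droplets included Irs2, the insulin receptor substrate of beta cells, 5.94-fold (3.23 to 12.4), Fmn2, an actin nucleator, 7.50-fold (3.21 to 23.1), the phosphodiesterase Pde10a, 4.64-fold (2.35 to 10.8), and the calcium channel gene Cacna1a, 4.63-fold (2.24 to 11.5), each from 10 UMIs or fewer in the class. Nuclear RNAs were lower with firmer counts: Malat1 stood at 0.522 times the cells' level (0.509 to 0.535), short of 2-fold, and Meg3 at 0.473 times (0.441 to 0.507). Of the immediate early genes 2 of 16 were lower and of the heat shock genes 1 of 12, with medians of -0.14 and -0.10, beside 7.75% lower and a median of -0.14 over all genes tested.

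Hormones of other islet cells were low in the insulin-rich low-mt droplets when measured against free RNA. Of 3268 genes, 8.26% were called against free RNA, 36 higher (1.1%) and 234 lower (7.16%), and with all UMIs as the total 0 were higher and 287 lower. Gcg stood at 0.427 times free RNA, Ppy at 0.309 times and Sst at 0.196 times, and Ctrb1 was 25.8-fold lower. Against insulin-rich cells Gcg was 3.69-fold higher (3.61 to 3.78), a direction that turned, to a log2 ratio of -1.13, when cells of all insulin classes were the reference. Gcg had UMIs in 446 of the 447 droplets, from 0.314% of rest UMIs at the 10th percentile to 3.60% at the 90th with a median of 1.15%, and free RNA, at 3.74%, lay above that range. The part of free RNA in the Gcg difference was not tested.

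Depth differs between droplets and cells, so genes per droplet were compared after thinning every droplet and cell to 1000 UMIs. Insulin-poor low-mt droplets had a median of 555 genes (10th to 90th percentile 377 to 643), above the 474 of insulin-poor cells. Insulin-mid low-mt droplets had 481 against 441 in insulin-mid cells and 404 in joined free RNA, and insulin-rich low-mt droplets 289 against 326 in insulin-rich cells. High-mt droplets had fewest, with 117 in the insulin-poor and 235 in the insulin-mid class. Before thinning the medians were 1300, 574, 476, 147 and 385 genes in the order given for the droplets. Insulin and mitochondrial shares, which are part of the rule, take UMIs from other genes and so enter these counts. Other hormone genes take UMIs too. Gcg had 1740790 of 15836574 UMIs in insulin-poor cells and 6264 of 920897 in insulin-poor low-mt droplets. The part of hormone genes in the gene counts was not tested.

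Malat1, present in nearly every cell, was uneven below the limit. Its median share of rest UMIs was 2.96% in insulin-poor low-mt droplets, 1.88% in insulin-mid low-mt, 1.91% in insulin-mid high-mt, 1.49% in insulin-poor high-mt and 1.07% in insulin-rich low-mt droplets, against 2.78 to 3.08% in the insulin classes of cells. At 1000 UMIs, 92 of 447 insulin-rich low-mt droplets (20.6%) had no Malat1 UMI, compared with 34 of 2788 insulin-rich cells (1.22%). In the insulin-poor low-mt class it was 23 of 282 (8.16%), compared with 3 of 1026 insulin-poor cells (0.292%). In the insulin-poor high-mt class it was 38 of 189 (20.1%), beside the same insulin-poor cells. Thinning matched total UMIs only, and these high-mt droplets held a median of 169 rest UMIs before it. The acinar and red cell carriers of the insulin-poor low-mt class had 0.118% and 0.0681% of rest UMIs from the whole nuclear RNA list.

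**Figure D4:**
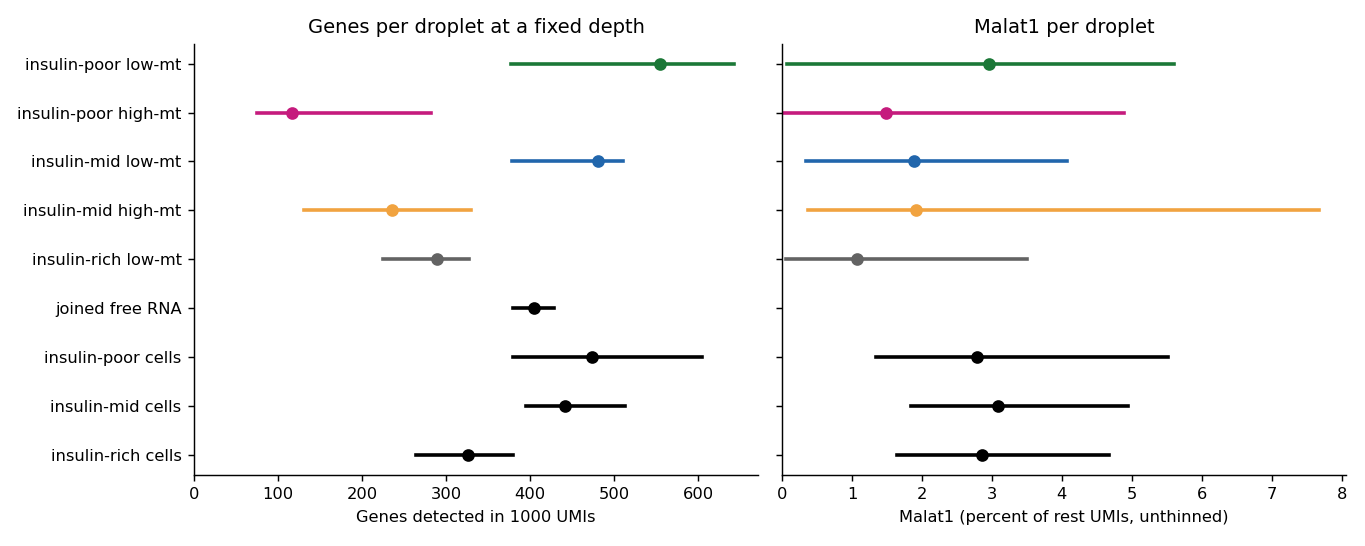
Left, genes detected per droplet after thinning to 1000 UMIs, and right, Malat1 as a percent of rest UMIs without thinning, as the median (point) and the 10th to 90th percentile (line) of each class, of joined free RNA (genes only) and of cells. Insulin-poor high-mt droplets have a median of 117 genes, and insulin-rich low-mt droplets a median of 1.07% Malat1 against 2.85% in insulin-rich cells.

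Differences from cells and free RNA were set against gene length. Genes with at least 20 UMIs expected in a class from the level in the reference pool were put into 5 equal bins by exonic length, which selects them on the reference level alone. In insulin-rich low-mt droplets the median log2 ratio to insulin-rich cells went from 0.11 in the shortest bin through -0.02, -0.18 and -0.43 to -0.67 in the longest (3320 genes, Spearman rho -0.54 across genes, which are not independent). Against free RNA it went from 0.18 to -0.54. The called lower genes of that class had a median exonic length of 8.50 kb, against 4.07 kb for all genes tested. In insulin-poor low-mt droplets the medians also fell with length, from -0.34 to -0.64 against free RNA and from 0.07 to -0.19 against cells (rho -0.12 each). The high-mt classes went the other way against cells: in insulin-poor high-mt droplets from -0.96 in the shortest to -0.24 in the longest bin (228 genes, rho 0.32), and in insulin-mid high-mt droplets from -0.98 to -0.49 (159 genes, rho 0.27). Against free RNA their trends were weak (rho 0.17 each). The insulin-mid low-mt class stayed near 0 in every bin against free RNA (565 genes, rho 0.09). Base composition differs between genes, and its part in these trends was not tested.

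**Figure D5:**
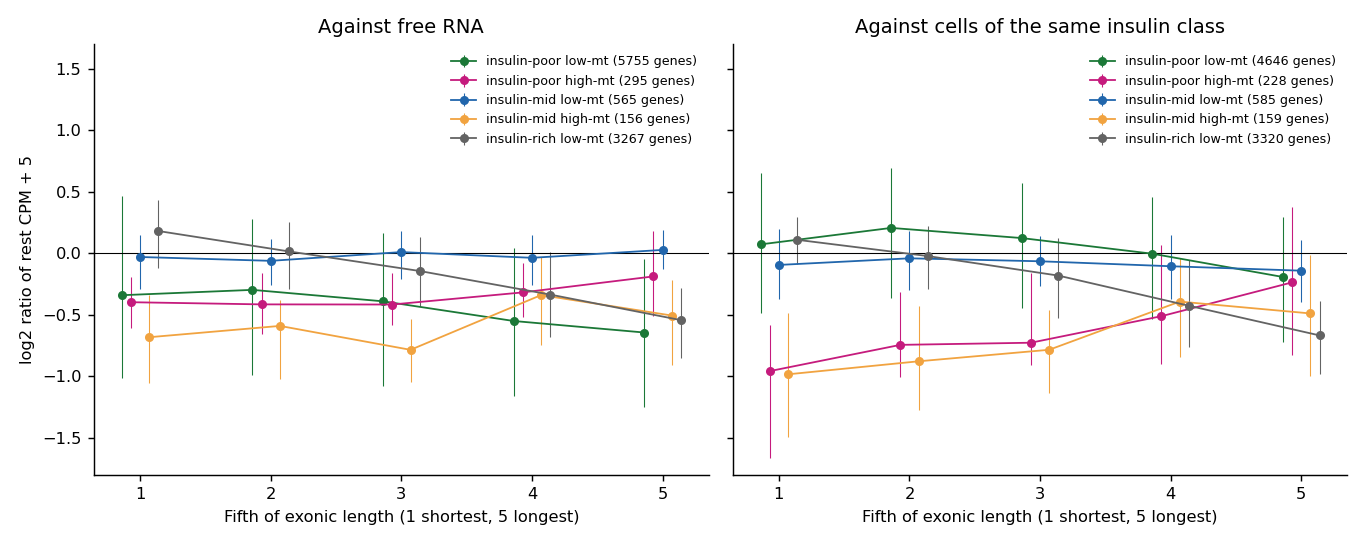
Median log2 ratio of rest CPM plus 5 (points) with the quartiles over genes (bars) in 5 bins of exonic length, from shortest to longest, for 5 classes of low-RNA droplets against free RNA (left) and against cells of the same insulin class (right). Against cells, insulin-rich low-mt droplets (grey) go from 0.11 to -0.67 and insulin-poor high-mt droplets (magenta) from -0.96 to -0.24.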

How the data were processed

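The authors deposited a 10x matrix of all barcodes with its gene list, whose values are UMI counts per gene and barcode, whole numbers without any normalisation, per the file headers. The library was made with the 10x Genomics 3′ v2 kit, per the labels' protocols. Per the submitters' processing notes, FastQC and Trimmomatic were used and the genome build was mm10; for the aligner, counting tool, annotation, strand setting and versions, nothing is stated (not given in the sources used here). Without a known strand setting, reads of overlapping genes cannot be told apart.

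From these counts, barcodes were sorted by UMI total, insulin share and mitochondrial share, and raw UMIs were summed per class. Counting intervals are exact (Clopper-Pearson for shares, Poisson for sums, conditional binomial for ratios, 95%). Named genes are the 8 highest and 8 lowest called ratios per comparison, the leading members of each marker set and gene list, and fixed hormone, haemoglobin and nuclear RNA genes; Cd4, Cd8a, Skap1 and Alas2 were named after their values were seen. Clusters came from Leiden clustering of 2000 variable genes with 30 components, 15 neighbours, resolution 0.5 and seed 7; a name needed exactly 1 set with at least 3 raised markers, a marker among the 10 leading genes and most droplets as carriers, with no other set competing, a rule set after the clusters were seen. Positions and lengths are from GENCODE M21 on GRCm38, in which 27722 of 27998 gene identifiers were found; 2 listed genes, Rian and Peg13, were not in the matrix. Alternatives varied the total, limits, floor, pseudocount, weighting, reference pool, carrier rule, thinning depth and cluster settings. The steps were tested on simulated data. The droplet classes, marker sets and gene lists were chosen with earlier results of these data known. Python 3.11.15, numpy 2.4.6, scipy 1.17.1, pandas 2.3.3, scanpy 1.11.5, leidenalg 0.10.2, igraph 0.11.9 and matplotlib 3.10.9 were used.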

Additional observations from a re-analysis of the deposited data

How the results depend on the processing

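Of 709 alternative values computed, 223 concern the main counts, shares and genes per droplet. Of these, 163 stayed near the main value and 60 moved. Near means within 1.5 times for counts, within the counting interval for shares, and within 1 standard deviation over droplets for genes per droplet. No paired analysis was possible because there is 1 library per genotype and none has a replicate.

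Class shares moved with the limits. Insulin-poor low-mt went from 27.0% to 44.8% with a lower limit of 2000 UMIs and 23.0% with 500, and insulin-poor high-mt from 18.1% to 4.75% and 25.8%, and to 13.1% with insulin limits of 10 and 35%. Insulin-mid low-mt went from 6.42% to 4.13% at 2000 UMIs, insulin-mid high-mt from 4.89% to 3.31% at 2000 UMIs, 9.68% with insulin limits of 10 and 35% and 2.78% with 20 and 45%, and insulin-rich low-mt from 42.9% to 37.2% at 500 UMIs.

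Counts of genes called at 2-fold moved in every class. A floor of 200 rest CPM in place of 50 tests fewer genes: against free RNA it called 427 (insulin-poor low-mt), 79 (insulin-poor high-mt), 16 (insulin-mid low-mt), 163 (insulin-mid high-mt) and 36 genes (insulin-rich low-mt); against cells 306, 165, 29, 152 and 30 in that order; and 414 between insulin-poor high-mt and low-mt. With all UMIs as the total the insulin-poor high-mt counts were 1444 against free RNA, 1854 against cells and 2434 against low-mt, the insulin-mid low-mt counts 81 and 115, the insulin-mid high-mt count against low-mt 470 and the insulin-rich low-mt count against cells 79. With a lower limit of 2000 UMIs, which leaves fewer droplets, insulin-poor high-mt had 1464 and 1093 and insulin-mid low-mt 528 and 518; this limit was not run for insulin-mid high-mt, which kept too few droplets. Insulin-mid low-mt against cells had 510 with the mean of droplet shares and 183 against all cells. The requirement of 20 UMIs counted or expected, chosen after seeing the data, gave 50, 140 and 275 for insulin-poor high-mt (free RNA, cells, low-mt), 15 and 28 for insulin-mid low-mt, and 61, 65 and 69 for insulin-mid high-mt.

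Carriers moved for small sets: with 3 UMIs from 2 genes pericyte carriers were 31 and fibroblast carriers 19, with 10 times the free RNA share ductal carriers were 0, and from 2000 UMIs up ductal carriers were 2, macrophage carriers 14 and acinar carriers 3. Of the shares below the limit under 2 settings chosen after seeing the data, cells at full depth gave 20.9% for pericyte and 23.5% for fibroblast carriers, and both sides thinned to 1000 UMIs gave 20% for ductal carriers; the other shares stayed within their intervals. At a resolution of 1.0 a T cell-like cluster of 22 droplets was split off and 14 clusters formed, and endothelial-like clusters held 112 to 113 droplets under every cluster setting tried. Thinning to 2000 UMIs, which leaves out shallower droplets, gave 974, 396, 717, 526.5, 507 and 440 genes in insulin-poor low-mt, poor high-mt, mid low-mt, mid high-mt, rich low-mt and rich high-mt droplets and 797.5, 772 and 576 in the cells.

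Directions of single genes were followed only for Malat1, Meg3, Gm42418, Iapp, Gcg and Neat1, where called, and turned for 9 values. Other genes were not followed, and gene list medians that turned with all UMIs as the total are not among the 9. With all UMIs as the total, the log2 ratio of insulin-poor high-mt droplets to free RNA was -0.18 for Malat1 and -0.58 for Neat1, to cells -0.14 for Meg3 and -0.32 for Iapp, and to low-mt droplets -0.98 for Gcg, and that of Neat1 between insulin-mid high-mt and low-mt was -0.00026. Against all cells it was -0.39 for Iapp in insulin-poor high-mt, -0.015 for Gcg in insulin-mid low-mt and -1.13 for Gcg in insulin-rich low-mt droplets. The cause of the other changes was not tested.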
